A study of Mus musculus with 5 samples.

Results

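Anoctamins are a family of multi-pass membrane proteins that respond to calcium. Some members are calcium-activated chloride channels, others are scramblases, which move phospholipids between the leaflets of a membrane, and several work at intracellular membranes. Human ANO3, the counterpart of mouse Ano3, is a gene for inherited dystonia, a movement disorder, and Ano3 is known for strong expression in the striatum, the input nucleus of the basal ganglia.

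Read counts of 8 anoctamin genes were compared between striatal total RNA libraries of R6/1 mice (n = 2) and WT mice (n = 3). R6/1 mice carry a transgene made of exon 1 of human HTT, the Huntington's disease gene, with 115 given as its CAG expansion, while WT mice carry none; both groups share a mixed background of CBA and C57BL/6 in equal parts. The sources used here do not give age, sex or the transgene's promoter. Nor do they say that each library is a different animal, and the p-values then reflect library-to-library spread alone, part of which may be technical. The 8 genes, Ano1, Ano2, Ano3, Ano4, Ano5, Ano6, Ano8 and Ano10, were chosen by family name from a table of 26369 genes, with the R6/1 and WT counts of this same comparison already known. Their fold changes and adjusted p-values are therefore a description of these libraries and not independent support. Ano7 was also in the table, with 5 and 1 counts in the R6/1 libraries and 0, 2 and 0 in the WT libraries, under the filter on low counts. Ano9 was not analysed here. All 8 chosen genes passed the filter in a set of 17202 tested genes.

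In the R6/1 libraries Ano3 was 4.42-fold lower and Ano2 2.75-fold lower than in the WT libraries, and Ano8 was 1.38-fold lower. Ano5, counted at a low level, was 1.86-fold higher, and Ano1, Ano4, Ano6 and Ano10 did not pass the test. In bulk tissue, fewer cells of a type and less RNA per cell cannot be told apart. Thus 3 of 8 genes were called lower, where 12.8% of all tested genes were, and 1 was called higher, where 9.72% were. Calls in either direction made up 22.6% of tested genes, at an adjusted p below 0.05 with edgeR's quasi-likelihood test and Benjamini-Hochberg adjustment over all tested genes. Because the genes were picked with these values known, nothing is read from the counts of calls.

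The sequences around the start sites of the 2 genes with the lowest fold changes are shown first, to give the annotated starts of their transcripts. RefSeq windows run from 250 bases before to 50 bases after a start and were matched by symbol for 7 of the 8 genes, all except Ano8. Ano3 had 2 annotated starts and Ano2 had 3. The last bases of the upstream Ano3 window and of the Ano2 window shown were found in the first part of a GENCODE M21 transcript of the gene. Those of the downstream Ano3 window were not. Such a match shows that the bases lie in a transcript and not that one begins there, so each start rests on RefSeq here. Gene-level counts cannot tell transcripts from different starts apart. The Ano3 windows lie on build GRCm38.p6, on the minus strand, at chr2:110950195-110950494 for the upstream start and chr2:110840010-110840309 for the downstream start. The Ano2 window shown is that of its middle start, on the plus strand at chr6:125690369-125690668, the only one of its 3 windows with a match to any motif searched. Each is printed 5′ to 3′ along the gene, with motif matches in capitals.
Ano3, upstream start: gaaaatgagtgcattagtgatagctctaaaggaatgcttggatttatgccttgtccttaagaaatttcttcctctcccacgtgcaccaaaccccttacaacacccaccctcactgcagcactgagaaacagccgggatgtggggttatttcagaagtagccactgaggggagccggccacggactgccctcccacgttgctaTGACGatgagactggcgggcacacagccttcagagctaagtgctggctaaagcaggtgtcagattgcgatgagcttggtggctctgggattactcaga
Ano3, downstream start: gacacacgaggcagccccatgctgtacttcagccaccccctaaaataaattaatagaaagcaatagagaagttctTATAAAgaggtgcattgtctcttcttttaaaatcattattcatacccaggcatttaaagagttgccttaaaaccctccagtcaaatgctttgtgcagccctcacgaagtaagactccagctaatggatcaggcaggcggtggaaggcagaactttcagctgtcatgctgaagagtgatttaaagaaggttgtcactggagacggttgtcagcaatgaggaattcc
Ano2, middle start: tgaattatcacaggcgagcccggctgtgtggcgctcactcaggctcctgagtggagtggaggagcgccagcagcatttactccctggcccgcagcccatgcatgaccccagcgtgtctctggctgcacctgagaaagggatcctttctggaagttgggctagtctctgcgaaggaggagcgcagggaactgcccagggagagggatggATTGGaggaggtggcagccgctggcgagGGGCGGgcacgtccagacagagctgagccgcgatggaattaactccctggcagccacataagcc

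Motifs searched on both strands were the cAMP response element (TGACGTCA), its core (TGACG, which the full element contains), the TATA box (TATAAA), the CCAAT box (CCAAT) and the GC box (GGGCGG). The upstream Ano3 window held 1 core, TGACG, beginning 48 bases before the start, where 20.8% of 32851 mouse windows of this length held one. The core was also in the windows of Ano6, on the opposite strand 212 bases before the start, and of Ano10, just after the start. The downstream Ano3 window held 1 TATAAA beginning 175 bases before its start, where 13.6% of all windows held one. The Ano2 window shown held a CCAAT match on the opposite strand and 1 GGGCGG, motifs held by 37.4% and 35.7% of all windows. It was shown because it held a match, and the other Ano2 windows held none, so these shares are not a like comparison. The full TGACGTCA, held by 1.79% of all windows, was in no window of these 7 genes. GC content was 52.0% and 43.7% in the Ano3 windows, against a median of 52.7% over all windows. The windows of Ano6, Ano10 and Ano1 were richer in GC, at 69.7%, 65.7% and 71.7%, and held 3, 5 and 4 GC boxes. Those of Ano2 were at 59.3%, 62.3% and 57.3%, that of Ano5 at 60.7% and that of Ano4 at 55.3%, also above the median. A match is only a description of these letters.

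Ano3 (ENSMUSG00000074968) encodes a neuronal anoctamin that in rat sensory neurons acts with the sodium-activated potassium channel Kcnt1. It had 8292 and 7360 counts in the R6/1 libraries and 23252, 17898 and 24213 in the WT libraries. As CPM, counts scaled to the library total with TMM normalization, these were 229.98 and 235 in R6/1, against 1042, 943 and 1092 in WT. Both R6/1 libraries lay far below every WT library, and the pair differed from each other by less than any 2 WT libraries did. The means were 232 ± 3.26 CPM in R6/1 (SD, n = 2) and 1026 ± 76.1 CPM in WT (SD, n = 3), so that 22.6% of the WT level was left in R6/1. The log2 fold change was -2.14 with a standard error (SE) of 0.09 (edgeR adjusted p = 8.47e-05), and 239 of the 17202 tested genes had a lower fold change. The authors' deposited table gives a log2 value of -2.10 for Ano3. Muc15, whose exons overlap those of Ano3 on the opposite strand in a later annotation (GENCODE M21), had 2 and 8 counts in R6/1, against 0, 7 and 2 in WT. With 1 library left out at a time the value was -2.20 to -2.10 and stayed past the threshold each time.

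Ano4 (ENSMUSG00000035189), the close relative of Ano3 within the family, had 40.8 and 46.5 CPM in R6/1, against 36.3, 34.1 and 41.3 CPM in WT. The lower R6/1 library lay within the WT range, so the groups overlapped. Its log2 fold change was 0.23 (SE 0.11, edgeR adjusted p = 0.170). Thus the value of Ano4 lay slightly above 0 and did not pass the test, whereas that of Ano3 lay well below 0.

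Among the channels, Ano2 (ENSMUSG00000038115), a calcium-activated chloride channel known from olfactory neurons and photoreceptors, had 806 and 694 counts in R6/1, against 1574, 989 and 1340 in WT. This was 22.4 and 22.1 CPM in R6/1, against 70.5, 52.1 and 60.5 CPM in WT. The R6/1 libraries were nearly identical and lay below the lowest WT library, while WT libraries spread widely. Ano2 averaged 22.2 ± 0.165 CPM in R6/1 (SD, n = 2) and 61.02 ± 9.22 CPM in WT (SD, n = 3), a log2 fold change of -1.46 (SE 0.13, edgeR adjusted p = 0.000760). The value was -1.55 to -1.34 with each library left out in turn, past the threshold each time.

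Ano1 (ENSMUSG00000031075), the calcium-activated chloride channel of smooth muscle and secretory epithelia, had 161 and 144 counts in R6/1, against 91, 92 and 95 in WT, a difference in raw counts that follows the deeper R6/1 libraries. It was at 4.47 and 4.59 CPM in R6/1, against 4.08, 4.85 and 4.29 CPM in WT, and the groups overlapped. The log2 fold change was 0.04 (SE 0.17, edgeR adjusted p = 0.885). Summed CPM of 11 endothelial and mural markers, cells in which Ano1 is also known, was 295 and 288 in R6/1, against 305 to 333 in WT. A large part of each sum was Rgs5, at 128 and 129 CPM in R6/1, against 149 to 167 CPM in WT. The median log2 fold change of the 11 markers was -0.07, against -0.0079 over all tested genes.

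Ano6 (ENSMUSG00000064210), the widely expressed calcium-dependent scramblase that exposes phosphatidylserine on platelets, was at 40.3 and 43.0 CPM in R6/1, against 37.0, 39.2 and 36.8 CPM in WT. Both R6/1 libraries lay above all WT libraries. The log2 fold change was 0.15 (SE 0.08, edgeR adjusted p = 0.231) and did not pass the test.

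The remaining 3 genes encode anoctamins of intracellular membranes. Ano8 (ENSMUSG00000034863), which tethers the endoplasmic reticulum to the plasma membrane, was at 40.5 and 43.1 CPM in R6/1, against 57.9, 52.0 and 62.6 CPM in WT, with no overlap. Its log2 fold change was -0.46 (SE 0.10, edgeR adjusted p = 0.0177). Leaving out R6/1 replicate 1 gave -0.42 (adjusted p = 0.130) and leaving out R6/1 replicate 2 gave -0.51 (adjusted p = 0.0890), so that either step ended the call. In GENCODE M21, exons of Dda1 on the opposite strand overlap those of Ano8. Dda1 had 37.2 ± 1.56 CPM in R6/1 and 31.7 ± 4.13 CPM in WT, and since the strand setting of the counting is not given, reads of the pair may not have been told apart.

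Ano5 (ENSMUSG00000055489), known from muscle membrane repair and from human muscular dystrophy, was counted 110 and 127 times in R6/1, against 34, 37 and 50 times in WT. It was at 3.05 and 4.05 CPM in R6/1, against 1.52, 1.95 and 2.26 CPM in WT, with both R6/1 libraries above all WT libraries. The log2 fold change was 0.89 (SE 0.25, edgeR adjusted p = 0.0411). The call was lost with any 1 of the 5 libraries left out, with an adjusted p of 0.0566 without WT replicate 3, 0.0572 without WT replicate 2, 0.0936 without R6/1 replicate 1, 0.102 without WT replicate 1 and 0.249 without R6/1 replicate 2. It was also lost without WT replicates 1 and 2 together (adjusted p = 0.188), the libraries with choroid plexus transcripts described below.

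Ano10 (ENSMUSG00000037949), whose human counterpart is a gene for a recessive ataxia, was at 19.7 and 18.6 CPM in R6/1, against 14.6, 15.4 and 17.0 CPM in WT. The groups did not overlap, yet the log2 fold change of 0.29 (SE 0.11) did not pass the test (edgeR adjusted p = 0.105). The authors' deposited table gives Ano10 a log2 value of 0.30 with an adjusted p of 0.0260, so this gene lies on the other side of the threshold there. In all, 3 of the 8 genes had both R6/1 libraries below every WT library, where 26.9% of tested genes did, and 3 had both above, where 27.2% did.

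**Figure D1:**
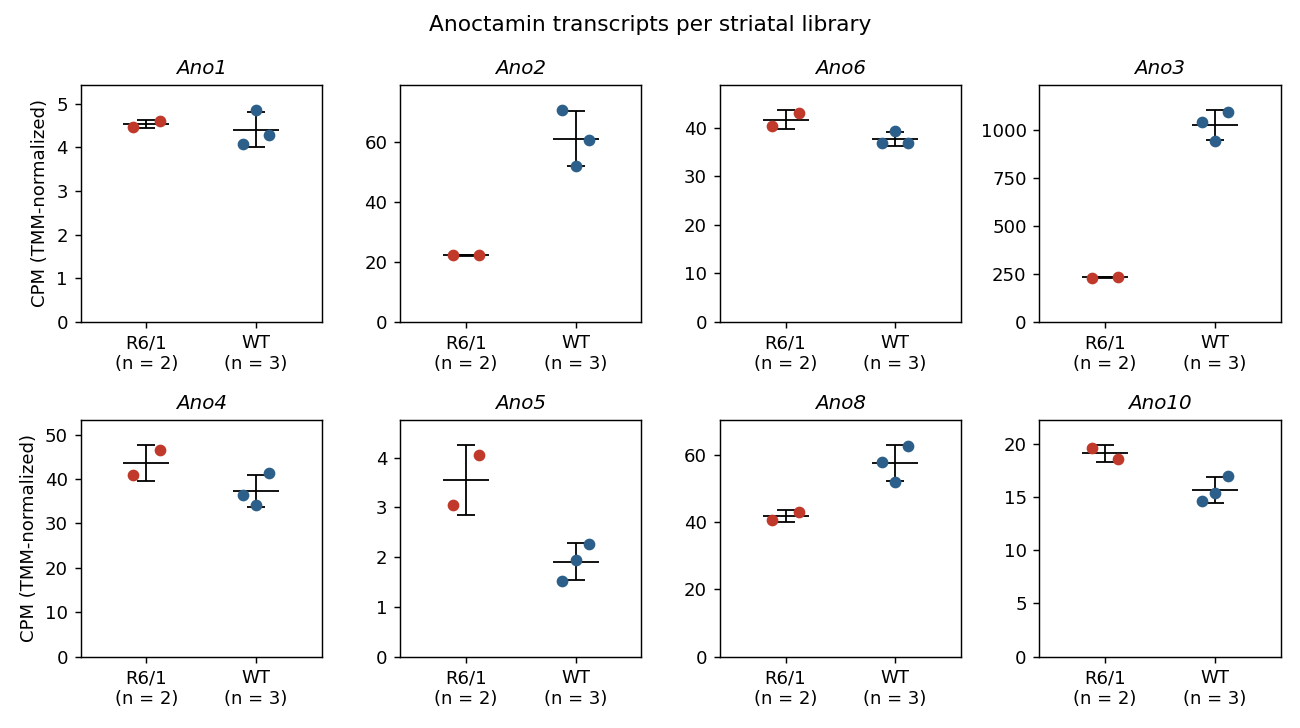
CPM (TMM-normalized, linear axes from 0) of the 8 anoctamin genes in each library, R6/1 (n = 2) beside WT (n = 3); points are libraries, horizontal lines group means and bars 1 SD. Ano3 stands at 229.98 and 235 CPM in R6/1, against 943 to 1092 CPM in WT, Ano2 and Ano8 are also lower without overlap, and the points of Ano1 and Ano4 overlap.

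Levels were compared between genes on the authors' normalized signal per kb of gene length. In R6/1 the order was Ano3 (2199 ± 38.0 per kb), Ano4, Ano8, Ano6, Ano10, Ano2, Ano1 and Ano5 (11.8 ± 2.39 per kb). In WT it was Ano3 (9597 ± 710 per kb), Ano2, Ano8, Ano4, Ano6, Ano10, Ano1 and Ano5 (6.29 ± 1.23 per kb). Neighbours whose libraries overlapped in level were Ano4 and Ano8 in R6/1 and Ano2 and Ano8 in WT. Ano2 was thus the sixth gene in R6/1 libraries, with 177 to 178 per kb, and the second in WT libraries, with 413 to 556 per kb. Ano3 was first in both groups, at 7.14 times the level of the next gene in R6/1 and 19.9 times in WT. Among all tested genes Ano3 ranked 1458 in R6/1 and 204 in WT on this scale. The lengths behind the deposited values range from 1.00 kb for Ano1 to 7.64 kb for Ano5. With the longest GENCODE M21 transcript in their place, a choice made after seeing the data, the order was the same in both groups. Every gene then had a lower value, by the largest factors for Ano1 (4.59 kb) and Ano3 (6.71 kb). These 2 genes were then at 25.1 and 882 per kb in R6/1 and 24.2 and 3849 per kb in WT. With those lengths Ano3 was at 3.27 times the level of the next gene in R6/1 and 9.84 times in WT, so the size of its lead depends on the length used.

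The signal summed over the 8 genes was 3562 ± 89.2 per kb in R6/1 (SD, n = 2) and 11241 ± 804 per kb in WT (SD, n = 3), 3.16-fold lower in R6/1. Ano3 made up 96.3% of that difference. Its share of the sum was 62.1% and 61.4% in the R6/1 libraries, against 85.2%, 85.2% and 85.7% in the WT libraries, so the shares varied by less than 1 percentage point within a group. These shares rest on the deposited lengths: with the longest GENCODE M21 transcripts they were 44.9% to 45.7% in R6/1, against 74.7% to 75.4% in WT, the sum was 2.64-fold lower in R6/1 and Ano3 made up 93.1% of the difference. Without Ano3 and Ano2, the remaining 6 genes summed to 1148 and 1222 per kb in R6/1, against 1129, 1122 and 1233 per kb in WT, and the groups overlapped.

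**Figure D2:**
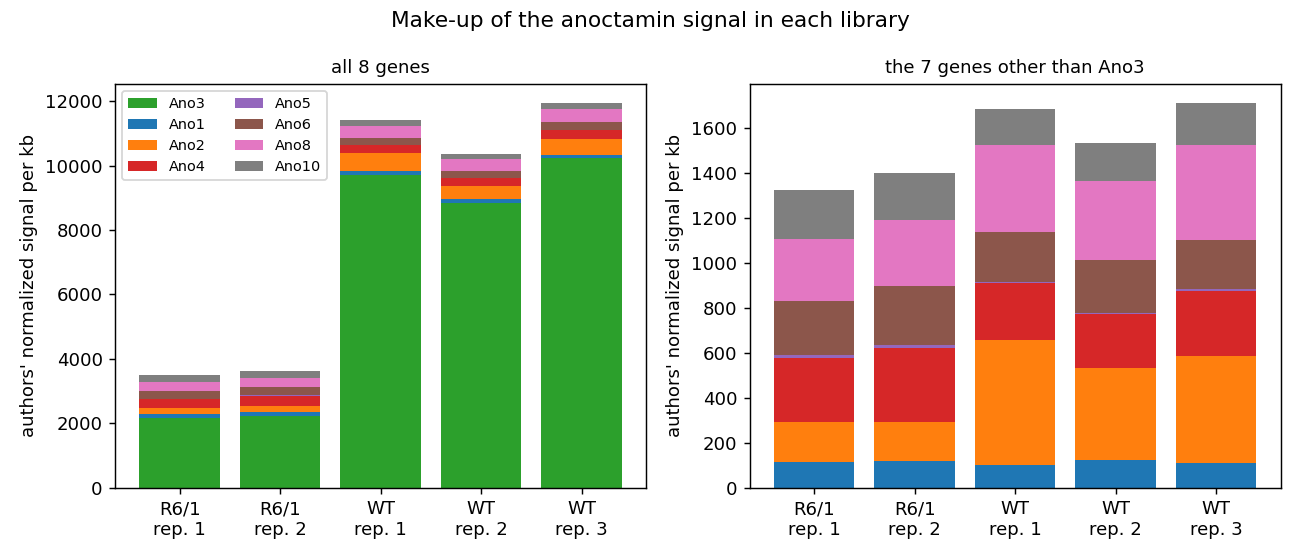
The authors' normalized signal per kb of the anoctamin genes stacked in each library (R6/1 replicates 1 and 2, then WT replicates 1 to 3), at the deposited gene lengths, for all 8 genes on the left and without Ano3 on the right; axes are linear and start at 0. Ano3 gives 62.1% and 61.4% of the stack in R6/1, against 85.2% to 85.7% in WT, and on the right the Ano2 segment is the one that differs most in height.

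Ano3 and Ano2 fell together with transcripts of the medium spiny neuron, the projection neuron that makes up most of the striatum. All 12 markers of this cell were called lower in R6/1, where 12.8% of all tested genes were. Their median log2 fold change was -1.84, against -0.0079 over all tested genes. With 1 WT library left out, 11 or 12 markers were called. The median was -1.79 without R6/1 replicate 1 and -1.82 without R6/1 replicate 2. None was at 0. Pde10a, a striatal phosphodiesterase, was at 491 ± 0.718 CPM in R6/1 and 2606 ± 216 CPM in WT, and Adora2a, the adenosine A2a receptor, at 34.9 ± 0.508 CPM in R6/1 and 188 ± 16.9 CPM in WT. The 12 markers summed to 2569 and 2600 CPM in R6/1, against 9195, 8019 and 8977 CPM in WT. Set against that sum, Ano3 was 8.95% and 9.02% of it in R6/1 libraries, against 11.3%, 11.8% and 12.2% in WT libraries, and Ano2 was 0.870% and 0.851% of it in R6/1, against 0.767%, 0.650% and 0.673% in WT. Relative to this sum, Ano3 was thus lower in both R6/1 libraries and Ano2 was higher. Against single markers the direction varied. Pde10a, Adora2a and Penk, at 5.31-fold, 5.40-fold and 5.80-fold lower, fell more than Ano3 (4.42-fold), and the other markers fell less. Foxp1, Tac1 and Bcl11b, at 1.31-fold, 1.58-fold and 1.79-fold lower, fell less than Ano2 (2.75-fold), and the other markers fell more. Penk, Foxp1, Tac1 and Bcl11b are named after their values were seen.

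Other cell types moved less with genotype or differed within groups. Of 8 pan-neuronal markers, 4 were called lower and 2 higher, with sums of 5138 and 5010 CPM in R6/1, against 4979 to 5684 CPM in WT. Of 8 astrocyte markers, 4 were called lower and 1 higher (sums of 3510 and 3429 CPM in R6/1, against 4844 to 4966 CPM in WT). Of 8 oligodendrocyte markers, 4 were called lower (5155 and 4928 CPM in R6/1, against 5154 to 7281 CPM in WT). Over all tested genes, 12.8% were called lower and 9.72% higher. Median log2 fold changes were -0.22 for pan-neuronal, -0.37 for astrocyte and -0.18 for oligodendrocyte markers, against -0.0079 over all tested genes. Microglial markers summed to 229 and 259 CPM in R6/1, against 235 to 267 CPM in WT, cortical projection neuron markers to 156 and 96.2 CPM in R6/1, against 96.5 to 290 CPM in WT, and ependymal markers to 28.3 and 12.7 CPM in R6/1, against 23.1 to 43.6 CPM in WT. Choroid plexus markers summed to 126 and 45.8 CPM in R6/1, against 3654, 3565 and 98.0 CPM in WT replicates 1, 2 and 3. With WT replicates 1 and 2 left out, the log2 fold change was -2.23 for Ano3, -1.44 for Ano2 and -0.58 for Ano8, all past the threshold, and the lone WT library is assumed there to vary like the R6/1 pair. Library totals were 34379064 and 29871306 counts in R6/1, against 19630036 to 23046266 in WT, so depth went with genotype, and its part in the results was not tested.

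**Figure D3:**
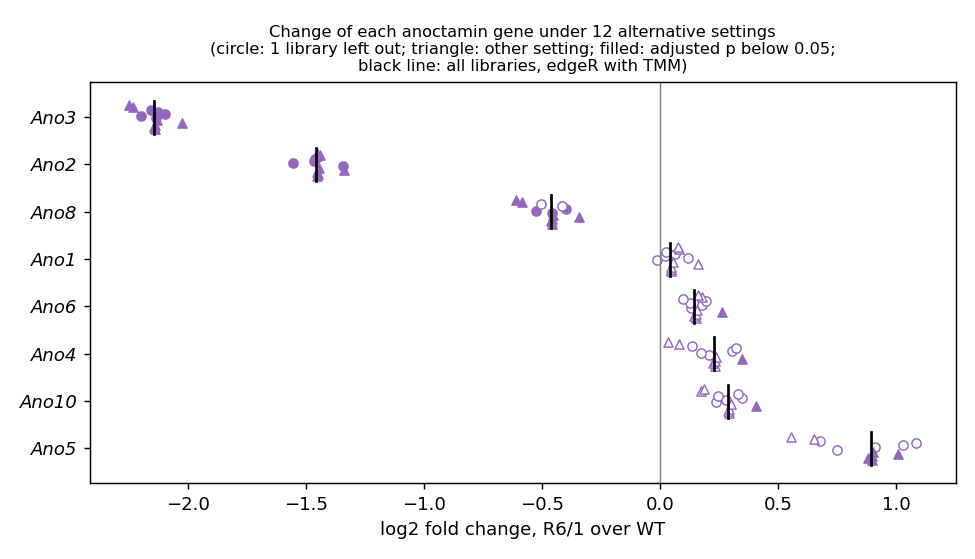
Log2 fold change, R6/1 over WT, of each anoctamin gene with all libraries (black line) and under 12 alternatives (circles, 1 library left out; triangles, other tools, scalings, filters or covariates); filled symbols have an adjusted p below 0.05. Ano3 stays between -2.25 and -2.02 and Ano2 between -1.55 and -1.34 with every symbol filled, while Ano5 is filled under 5 of the 12.

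The genes with a profile over the 5 libraries most like that of Ano3 were Arpp19, Pcp4, Ier5l, Gsg1l and Rgs14. Likeness was the Euclidean distance between log2 CPM profiles, each centred on its WT mean, among 12114 named genes, and ran from 0.145 for Arpp19 to 0.242 for Rgs14. Arpp19, a cAMP-regulated phosphoprotein, had 183 and 178 CPM in R6/1, against 821, 784 and 923 CPM in WT. Pcp4, a calmodulin-binding peptide, had 107 and 106 CPM in R6/1, against 437, 391 and 448 CPM in WT. Likeness to Ano3 over these libraries is what chose them, so their values are a description. Rgs14, a regulator of G-protein signalling, had 13.8 and 14.5 CPM in R6/1, against 68.2, 62.3 and 58.6 CPM in WT.

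Genes related to the anoctamins by disease, structure or function were described as lists. Over all tested genes, 12.8% were called lower and 9.72% higher, with a median log2 fold change of -0.0079. Nothing is read from the counts of calls in a list. Of 24 tested dystonia genes other than Ano3, 5 were called lower and 4 higher in R6/1, and 15 did not pass (median log2 fold change -0.03). Those called lower were Pde10a, Adcy5, Hpca, Kctd17 and Gnal, of which Adcy5, an adenylyl cyclase, was at 366 ± 0.979 CPM in R6/1 and 1303 ± 111 CPM in WT. Hpca, Kctd17, Gnal, Spr and Prkra are named after their values were seen, and Pde10a and Adcy5 are also among the medium spiny neuron markers. Those called higher were Eif2ak2, Taf1, Spr and Prkra, of which Eif2ak2, the double-stranded RNA-activated kinase, was at 20.9 ± 1.22 CPM in R6/1 and 11.9 ± 0.193 CPM in WT. With a choroid plexus covariate, and without R6/1 replicate 1 or 2, 2 were called higher, and without normalization 7 were.

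Calcium-activated and sodium-activated potassium channels, like the anoctamin channels, couple ion levels to membrane current. Of 11 tested genes for them, 6 did not pass and 5 were called lower, where 12.8% of all tested genes were. Their median was -0.47, against -0.0079 over all tested genes. The 5 were Kcnma1, Kcnn1, Kcnt1, Kcnt2 and Kcnmb4, the last 3 of which are named after their values were seen. Kcnma1, the large-conductance channel, was at 128 ± 8.63 CPM in R6/1 and 182 ± 11.8 CPM in WT. Kcnt1 had a log2 fold change of -0.31 (SE 0.07, edgeR adjusted p = 0.0242). The count of this list was 3 without WT replicate 3 or without normalization 2 with a choroid plexus covariate and 1 without R6/1 replicate 1. It was 0 without R6/1 replicate 2 in edgeR, where 5 had an unadjusted p below 0.05.

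TMC and TMEM63 genes form one superfamily with the anoctamins. Of 9 tested, 7 did not pass (median -0.06) and 2 were called higher, where 9.72% of all tested genes were. The 2 were Tmc3 and Tmem63b. Tmc3 was at 12.1 ± 0.890 CPM in R6/1 and 2.57 ± 1.09 CPM in WT, and Tmem63b at 67.9 ± 0.862 CPM in R6/1 and 53.8 ± 3.09 CPM in WT. Only 1 was called higher without WT replicate 1, WT replicate 3, R6/1 replicate 1 or R6/1 replicate 2, and 1 was called lower without WT replicate 2 or 3. With a choroid plexus covariate edgeR called 0, where 2 higher had an unadjusted p below 0.05. Of 26 tested genes for other lipid scramblases and flippases, 3 were called lower and 2 higher (median -0.0084). This is near the shares over all tested genes, 12.8% and 9.72%. Atp8b2 was at 108 ± 11.6 CPM in R6/1 and 142 ± 2.73 CPM in WT. Tmem30b, a flippase subunit, was at 1.17 ± 0.389 CPM in R6/1 and 0.173 ± 0.0126 CPM in WT. Its WT values, 0.158 to 0.180 CPM, are a few counts per library, as 1 count stood for 0.0448 to 0.0527 CPM there. It thus passed the filter on low counts through the R6/1 libraries alone, and the size of its change is uncertain. Calls in this list fell to 1 lower and 1 higher with a choroid plexus covariate, and also without WT replicate 1 or R6/1 replicate 2. Without normalization, 1 was lower and 3 higher. Without WT replicates 1 and 2, 2 were lower and 1 higher. Without WT replicate 3, 2 were higher and none lower in edgeR, where 5 lower had an unadjusted p below 0.05, and without R6/1 replicate 1 none was called, where 2 in each direction had.

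Of 26 tested genes for other chloride channels and transporters, 3 were called lower and 2 higher (median -0.04). This too is near the shares over all tested genes, 12.8% and 9.72%. Clcn1, the skeletal muscle chloride channel, was at 1.38 ± 0.242 CPM in R6/1 and 5.38 ± 1.27 CPM in WT, and Ttyh1, a glial membrane protein of the tweety family, at 239 ± 6.07 CPM in R6/1 and 350.1 ± 5.42 CPM in WT. Clcn3 was called higher, at 377 ± 16.1 CPM in R6/1 and 320.8 ± 2.67 CPM in WT. No member was called higher by edgeR without WT replicate 1, WT replicate 3, R6/1 replicate 1 or R6/1 replicate 2, where 3, 2, 3 and 2 had an unadjusted p below 0.05. The same held without WT replicates 1 and 2 together, where 5 had, and with a choroid plexus covariate, where 1 had, while DESeq2 on all libraries called 2 and without normalization 5 were called. The anoctamin genes themselves had a median log2 fold change of 0.09, with Ano3 and Ano2 far below it.

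**Figure D4:**
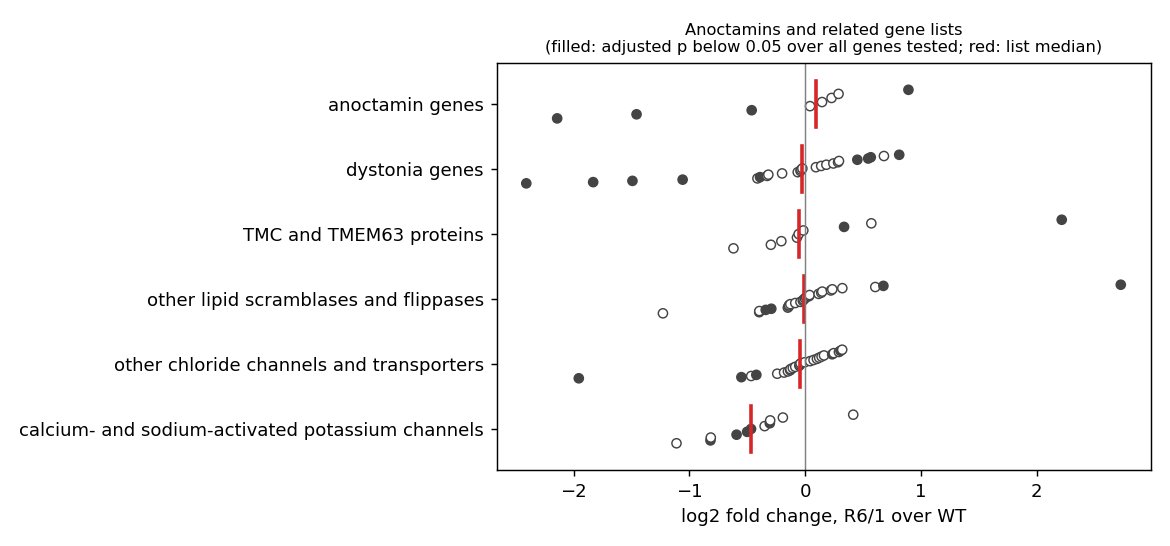
Log2 fold change, R6/1 over WT, of the tested genes of each list (1 point per gene, filled where the adjusted p is below 0.05; red lines are medians). The anoctamin median is 0.09 with Ano3 at -2.14 and Ano2 at -1.46, the potassium channel median is -0.47, and the medians of the other lists lie between -0.06 and -0.0084.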

How the data were processed

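The authors deposited 1 table with raw counts for each Ensembl gene in 5 libraries. Per the file headers it also holds a normalized signal (counts over a size factor for each library) and that signal per kb. The log2 values and p-values of the authors' comparison of the groups are deposited there too. The submitters' processing notes name CASAVA 1.8.2, TopHat 1.4.1, HTSeq 0.5.4p3, DESeq2 1.0.19 and build mm9. Libraries were strand-specific and depleted of ribosomal RNA, per the labels' protocols, but the strand setting of the counting is not given in the sources used here, nor is that for reads mapping to several places.

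Counts were tested with edgeR 4.0.16 (R 4.3.3), with TMM, filterByExpr (minimum count 10, minimum total 15) and genotype alone, on all genes. The standard error is that implied by the F statistic. Each pair of replicates differed by more than sampling noise (chi-square per gene 11.4 to 20.8). One count stood for 0.0277 to 0.0527 CPM. Alternatives were DESeq2 1.42.0, limma-voom (limma 3.58.1), other scalings, no filter, each library left out, WT replicates 1 and 2 left out, and a choroid plexus covariate. Of these steps only the main edgeR test was run on simulated counts with known changes, and its outcome there is not reported here. Counting calls within each list under these alternatives was added after seeing the data. The anoctamin genes, the lists and the rules for naming genes were chosen with earlier results of these data known. List members named are the 2 smallest p-values in each direction among those called, apart from those said to be named after their values were seen. Genes like Ano3 were sought where the mean log2 CPM was 1 or more and the symbol was not a clone or predicted name. Start site windows come from RefSeq, build GRCm38.p6, and names of overlapping genes from GENCODE M21, with no coordinates carried to mm9. Xkr9 and Plscr5 were not analysed here.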

Additional observations from a re-analysis of the deposited data

How the results depend on the processing

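Over 12 alternatives, 83 of 96 values of the 8 anoctamin genes kept their direction and their side of the threshold, and these include every value of Ano3 and Ano2. Without normalization the median of all genes moved by 0.12 on the log2 scale, and Ano4 (0.35), Ano6 (0.26) and Ano10 (0.41) passed the threshold. Relative to that median they were at 0.24, 0.15 and 0.30, close to their values with TMM, and 34.4% of all calls were lower in R6/1, against 56.9% with TMM. Ano5 missed the threshold with WT replicates 1 and 2 left out (0.65), with the choroid plexus covariate (0.55) and with each library left out in turn (0.68 to 1.08). Ano8 ranged from -0.53 to -0.40 with 1 library left out, and missed the threshold without either R6/1 library. Ano1 turned to -0.013 without WT replicate 1, within a range of -0.013 to 0.12. No anoctamin gene was called higher by edgeR with 1 library left out, where 0 to 3 had an unadjusted p below 0.05. Over all genes, 3882 were called, 1579 with the choroid plexus covariate and 1088 to 4853 with 1 library left out. The cause of these shifts was not tested. Fewer R6/1 libraries leave 1 sample in that group, which is assumed to vary like WT. No paired analysis was possible because the labels give no replicate numbers that the groups share; the numbers used here follow accession order within each group and only name a library. Counts of Ano5 and Ano1, at 34 to 161 per library, limit the precision of both.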
